A study of Macaca mulatta with 2 samples.

Results

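Non-collagen glycoproteins of the extracellular matrix were followed across the layers of the macaque eye wall. The 8 genes described here are FN1, FBLN1, THBS4, COMP, MGP, DPT, SPARC and PCOLCE, taken by symbol from the 26533 features of the series, and each symbol matched 1 feature. Their RNA was counted in 2 Visium sections, 1 from each of 2 wild-type male rhesus macaques named NHP1 (5 years old) and NHP2 (6 years old). Both sections came from the right eye, from 4 mm punches through retina, choroid and sclera that lay in the uninjected area outside the blebs. Elsewhere the eye of NHP1 had received AAV2-CAG-hRPE65 in 2 blebs, and the eye of NHP2 carried separate blebs of AAV8-GRK1-mScarlet and of AAV8-GRK1-hRPGR, in both after vitrectomy. Each eye had also been given 40 mg of subtenon triamcinolone and both animals a dexamethasone, neomycin and polymyxin B ointment, and eyes were taken 12 weeks after injection. The sections are therefore untreated by place and not by animal, and no eye without surgery was analysed here.

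The sclera is a dense fibrous coat in which fibroblasts lay down collagen fibrils, and the choroid beside it is a vascular layer with a looser, pigmented stroma. Glycoproteins such as fibronectin, fibulin-1 and thrombospondin-4 link collagen, elastic fibres and cell-surface receptors. Others act on the fibrils themselves, as dermatopontin, SPARC and the procollagen C-proteinase enhancer do, and matrix Gla protein is a vitamin K dependent inhibitor of mineral deposition that is known from cartilage, vessel walls and the trabecular meshwork.

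NHP1 had 534 spots over tissue with 1484784 UMIs (unique molecular identifiers, each counting 1 captured RNA molecule) and NHP2 had 470 with 805726. A spot is 55 μm wide and can hold several cells, so spots were clustered without the 8 genes and the resulting regions were named from layer markers, with all retinal regions summed as neural retina. NHP1 gave 120 sclera-like spots with 93901 UMIs, 70 choroid-like spots with 134027, 299 neural retina spots with 1186075 and 41 unnamed spots with 70595. NHP2 gave 181 sclera-like spots with 146615 UMIs, 61 choroid-like spots with 32912, 32 spots like retinal pigment epithelium (RPE) with 63891 and 63 neural retina spots with 559262. Spots under 100 UMIs stayed out of the regions, 4 in NHP1 and 133 in NHP2. The neural retina class was not alike in the sections. In NHP1, 175 of its 299 spots lay in 2 regions with 3 photoreceptor and 3 inner retina markers each, the fewest that could name a region. One of these regions, with 103 spots, had a median of 676.0 UMIs a spot. In NHP2 all 63 spots lay in 1 region named inner retina. The layers were not pure. Sclera markers summed to 139.3 and 404.1 UMIs per 10000 in the choroid-like spots of NHP1 and NHP2, RPE markers to 248.1 and 78.7 there, and photoreceptor markers to 75.4 and 21.0 in the sclera-like spots. Skeletal muscle markers were at or below 0.213 per 10000 in the sclera-like spots of both sections.

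Levels are UMIs per 10000 UMIs of a region, with exact Poisson 95% intervals, and ratios carry exact conditional 95% intervals. With 1 section per animal there was no replicate and no test, and all intervals cover counting error only. UMIs come from the 3′ ends of transcripts and are not scaled to length, so levels were compared between regions for each gene. Where UMIs of the members are summed or given as shares of that sum, they compare 3′ tags and not amounts of protein or of whole transcripts. Fewer cells of a type and less RNA per cell cannot be told apart in these sums.

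The 8 genes together made up 113.5 (106.8 to 120.5) of every 10000 UMIs in the sclera-like spots of NHP1 and 149.9 (143.7 to 156.3) in those of NHP2. In choroid-like spots the sum was 81.0 (76.3 to 86.0) and 90.8 (80.8 to 101.8). In neural retina it was 5.29 (4.89 to 5.73) and 4.26 (3.73 to 4.83). The genes separated into those largely of the sclera (FN1, FBLN1 and THBS4) and those with similar or closer levels in sclera and choroid (MGP, SPARC and, with the sections differing, DPT and PCOLCE), while COMP was too sparse to place.

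**Figure D1:**
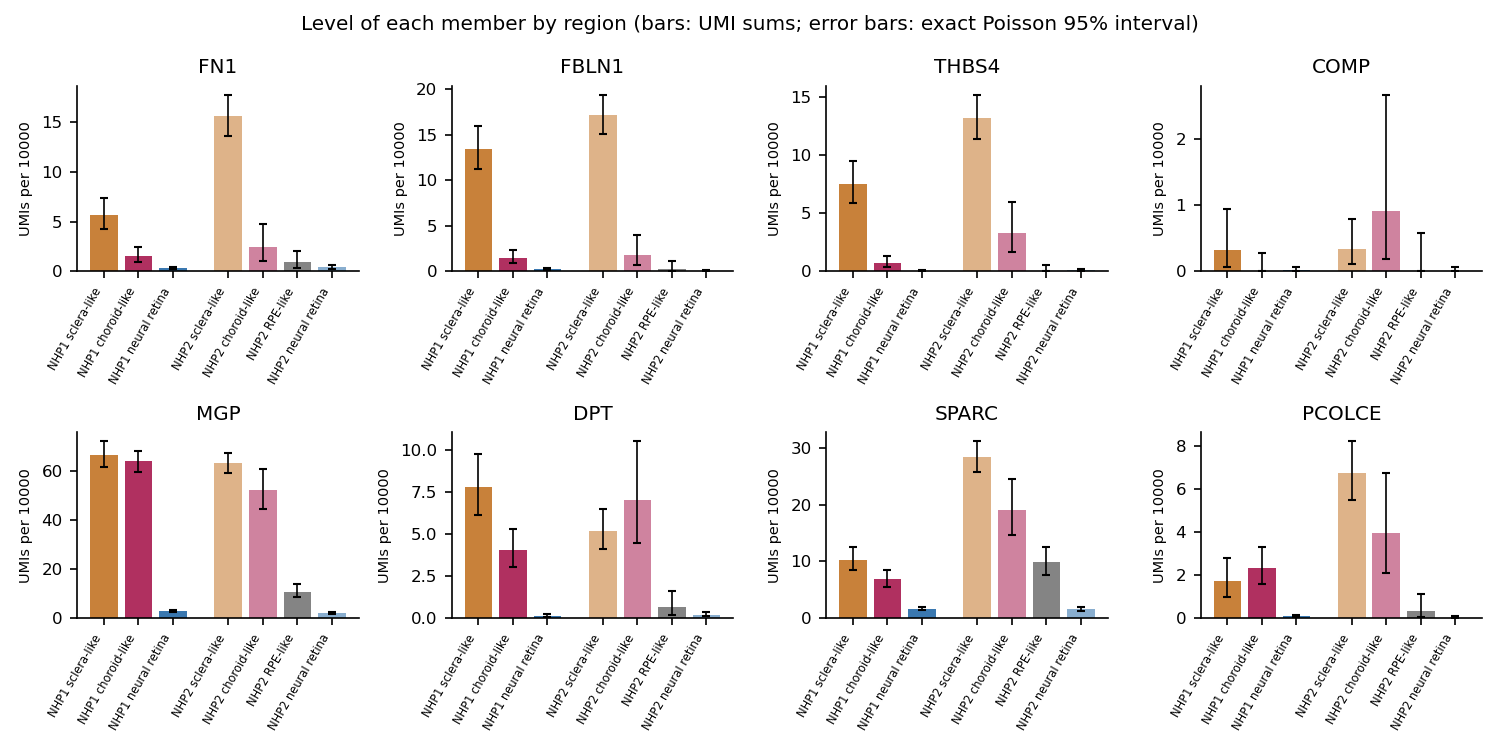
Bars give UMIs per 10000 of each gene by region in NHP1 and NHP2, on a linear axis of its own for each gene, with exact Poisson 95% intervals. MGP stood at 66.8 and 64.0 in the sclera-like and choroid-like spots of NHP1, whereas FBLN1 stood at 13.4 and 1.49.

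FN1, FBLN1 and THBS4 were the members with the steepest step from sclera to choroid in both animals. FN1 encodes fibronectin, an adhesive glycoprotein that cells assemble into fibrils through integrins. It was at 5.64 (4.23 to 7.38; 53 UMIs) in the sclera-like spots of NHP1, 1.57 (0.970 to 2.40; 21 UMIs) in the choroid-like spots and 0.295 (35 UMIs) in neural retina. In NHP2 the FN1 level was 15.6 (13.6 to 17.7; 228 UMIs) in sclera-like spots, 2.43 (1.05 to 4.79; 8 UMIs) in choroid-like spots, 0.939 (6 UMIs) in RPE-like spots and 0.447 (25 UMIs) in neural retina. Both sections thus gave the order sclera, choroid, neural retina. The choroid over sclera ratio of FN1 was 0.278 (0.159 to 0.468) in NHP1 and 0.156 (0.0667 to 0.313) in NHP2, and its sclera level was 19.1-fold (12.2 to 30.2) and 34.8-fold (23.0 to 54.9) above neural retina.

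FBLN1 encodes fibulin-1, a calcium-binding glycoprotein of basement membranes and elastic fibres that binds fibronectin. Its level in NHP1 was 13.4 (11.2 to 16.0; 126 UMIs) in sclera-like spots, 1.49 (20 UMIs) in choroid-like spots and 0.236 (28 UMIs) in neural retina. In NHP2 it was 17.2 (15.1 to 19.4; 252 UMIs), 1.82 (6 UMIs) and 0.0536 (3 UMIs), with 2 UMIs in the RPE-like spots. The fall of FBLN1 from sclera to choroid was of like size in the animals, 8.99-fold (5.58 to 15.2) and 9.43-fold (4.27 to 25.9). Against neural retina the sclera level was 56.8-fold (37.5 to 88.9) higher in NHP1 and 320.4-fold (108.4 to 1564.2) higher in NHP2, the latter resting on 3 UMIs in the retina.

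THBS4 encodes thrombospondin-4, a pentameric glycoprotein that binds collagen and is best known from tendon. NHP1 held 7.56 (5.91 to 9.54; 71 UMIs) per 10000 in sclera-like spots, 0.746 (10 UMIs) in choroid-like spots and 0.0674 (8 UMIs) in neural retina, with 0 in the photoreceptor region. NHP2 held 13.2 (11.4 to 15.2; 194 UMIs) in sclera-like spots, 3.34 (11 UMIs) in choroid-like spots, 0.0894 (5 UMIs) in neural retina and 0 UMIs in the RPE-like spots, where a count of 0 allows up to 0.470. THBS4 was 10.1-fold (5.20 to 22.0) higher in sclera than in choroid in NHP1 and 3.96-fold (2.16 to 8.06) higher in NHP2. A long non-coding RNA, LOC114678827, is annotated on the opposite strand over THBS4, and the strand setting of the counting is not given in the sources used here.

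COMP, the cartilage oligomeric matrix protein and closest relative of thrombospondin-4 among these genes, was nearly absent from the counts. NHP1 had 7 COMP UMIs over all tissue, 3 of them in sclera-like spots, 0 in choroid-like spots, 3 in neural retina and 1 in the unnamed region. NHP2 had 8, of which 5 lay in sclera-like spots and 3 in choroid-like spots. The intervals of COMP overlapped between sclera and choroid in both sections, so a difference was not detectable at this depth.

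The upstream DNA of FN1, FBLN1 and THBS4 is shown because these genes were lower in choroid together. The 3 sequences below are the 250 bases before the annotated start of each gene, on the coding strand, from RefSeq's annotation of Mmul_10. FN1 lies at chr12:102734973-102811270 on the minus strand, FBLN1 at chr10:5899073-5997600 on the minus strand and THBS4 at chr6:76850025-76896339 on the plus strand. Capitals mark matches, on either strand, to TATAAA as the TATA box, to the CCAAT box, to the GC box GGGCGG or to the AP-1 consensus TGANTCA. The windows are chr12:102811271-102811520, chr10:5997601-5997850 and chr6:76849775-76850024, in the order printed.
FN1: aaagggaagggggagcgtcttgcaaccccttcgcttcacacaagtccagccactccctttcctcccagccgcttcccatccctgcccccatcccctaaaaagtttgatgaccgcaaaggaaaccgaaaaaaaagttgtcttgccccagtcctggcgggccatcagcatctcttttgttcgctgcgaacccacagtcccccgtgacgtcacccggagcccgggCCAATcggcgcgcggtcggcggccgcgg
FBLN1: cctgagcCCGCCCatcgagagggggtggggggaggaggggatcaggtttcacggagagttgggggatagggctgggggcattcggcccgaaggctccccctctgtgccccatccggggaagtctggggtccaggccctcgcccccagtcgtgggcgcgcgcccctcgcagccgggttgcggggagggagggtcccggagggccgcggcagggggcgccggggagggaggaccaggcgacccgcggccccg
THBS4: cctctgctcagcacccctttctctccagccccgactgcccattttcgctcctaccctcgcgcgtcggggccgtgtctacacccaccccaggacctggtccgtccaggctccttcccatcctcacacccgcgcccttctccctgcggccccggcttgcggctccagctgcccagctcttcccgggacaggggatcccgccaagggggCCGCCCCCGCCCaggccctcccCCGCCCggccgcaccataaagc

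The GC content of these windows was 61.6% for FN1, 76.4% for FBLN1 and 72.0% for THBS4, against a median of 57.2% over all promoters. FN1 held a CCAAT match whose first base lay 28 bases before the start. FBLN1 held a GGGCGG match, on the reverse strand, at 243 bases and THBS4 held 3, also reversed, at 44, 38 and 22 bases. Among 20782 promoters of this length, TATAAA occurred in 9.85%, CCAAT in 31.0%, GGGCGG in 43.7% and TGANTCA in 5.15%. No motif was shared by all of FN1, FBLN1 and THBS4, and TGANTCA was in none of the 7 windows searched. Of the other genes, DPT (chr1:26047520-26081306, minus strand) held TATAAA at 223 and 17 bases and COMP (chr19:18349869-18359023, minus strand) held GGGCGG at 131 bases. SPARC (chr6:149135694-149161803, minus strand) and PCOLCE (chr3:42683470-42689789, plus strand) held none of the 4 motifs in this window. A match is a run of letters and not a site of binding.

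MGP gave the most UMIs of the members in both layers of the outer wall and, summed over each section, fell little between them, although the tissue pieces of NHP1 went opposite ways (0.724 and 1.63 for choroid over sclera). Its level in NHP1 was 66.8 (61.6 to 72.2; 627 UMIs) in sclera-like spots and 64.0 (59.8 to 68.4; 858 UMIs) in choroid-like spots. In NHP2 it was 63.3 (59.3 to 67.5; 928 UMIs) and 52.3 (44.7 to 60.7; 172 UMIs). The sclera over choroid ratio of MGP was 1.04 (0.939 to 1.16) in NHP1, where the interval holds 1, and 1.21 (1.03 to 1.43) in NHP2. Neural retina had 2.82 (334 UMIs) and 1.91 (107 UMIs), so the sclera level of MGP was 23.7-fold (20.7 to 27.2) and 33.1-fold (27.1 to 40.8) higher. The RPE-like spots of NHP2 stood between at 10.8 (69 UMIs), 5.64-fold (4.11 to 7.71) above neural retina.

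MGP made up 58.8% of the UMIs of the 8 genes in the sclera-like spots of NHP1 and 42.2% in those of NHP2. Its share was larger in the choroid-like spots, at 79.0% and 57.5%. MGP was also found in most spots of both layers. It had a UMI in 87.5% and 88.4% of sclera-like spots of NHP1 and NHP2, in 97.1% and 88.5% of choroid-like spots, and in 46.2% and 58.7% of neural retina spots, which were deeper (median 2842.0 and 4348.0 UMIs against 563.5 and 551.0 in sclera). Thinned to 200 UMIs a spot, the shares were 65.5% and 66.9% in sclera, 64.3% and 61.1% in choroid and 6.23% and 5.00% in neural retina.

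DPT encodes dermatopontin, a tyrosine-rich protein that binds decorin and promotes collagen fibril assembly. NHP1 had a DPT level of 7.77 (73 UMIs) in sclera-like spots, 4.03 (54 UMIs) in choroid-like spots and 0.126 (15 UMIs) in neural retina. NHP2 had 5.18 (76 UMIs), 6.99 (23 UMIs) and 0.179 (10 UMIs), with 4 UMIs in the RPE-like spots. The order of sclera and choroid for DPT was reversed between the animals, with choroid over sclera ratios of 0.518 (0.358 to 0.747) and 1.35 (0.807 to 2.17), and the second interval holds 1. In both animals DPT lay well above neural retina, 61.5-fold (34.9 to 115.4) and 29.0-fold (14.9 to 62.9) in the sclera.

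SPARC, also called osteonectin, is a collagen-binding glycoprotein secreted during matrix assembly and remodelling. Of the members with a ratio it had the smallest step from sclera to neural retina in each section. Its sclera level was 10.3 (97 UMIs) in NHP1 and 28.4 (416 UMIs) in NHP2, its choroid level 6.86 (92 UMIs) and 19.1 (63 UMIs), and its neural retina level 1.65 (196 UMIs) and 1.56 (87 UMIs). The choroid over sclera ratio of SPARC was 0.664 (0.494 to 0.893) in NHP1 and 0.675 (0.509 to 0.881) in NHP2, so its intervals overlap between the sections and both lie below 1. Within NHP1 the ratio was 0.510 in tissue piece 1 and 1.14 in piece 2, so the lower choroid level of SPARC did not hold in both of its pieces. Against neural retina the SPARC ratios were 6.25 (4.85 to 8.01) and 18.2 (14.4 to 23.3). The RPE-like spots of NHP2 had 9.86 (63 UMIs), 6.34-fold (4.51 to 8.87) above neural retina, and SPARC made up 43.2% of the members' UMIs there against 18.9% in the sclera-like spots. In NHP1 SPARC was at 4.39 in the unnamed region, which carried both photoreceptor and RPE markers.

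PCOLCE encodes the enhancer that speeds removal of the C-propeptide from fibrillar procollagens by BMP1-type proteinases. Its UMIs were few in NHP1, with a level of 1.70 (16 UMIs) in sclera-like spots, 2.31 (31 UMIs) in choroid-like spots and 0.0759 (9 UMIs) in neural retina. In NHP2 PCOLCE reached 6.75 (99 UMIs) in sclera-like spots, 3.95 (13 UMIs) in choroid-like spots and 0.0179 (1 UMI) in neural retina. Choroid over sclera ratios of PCOLCE were 1.36 (0.720 to 2.66) and 0.585 (0.301 to 1.05), and both intervals hold 1.

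**Figure D2:**
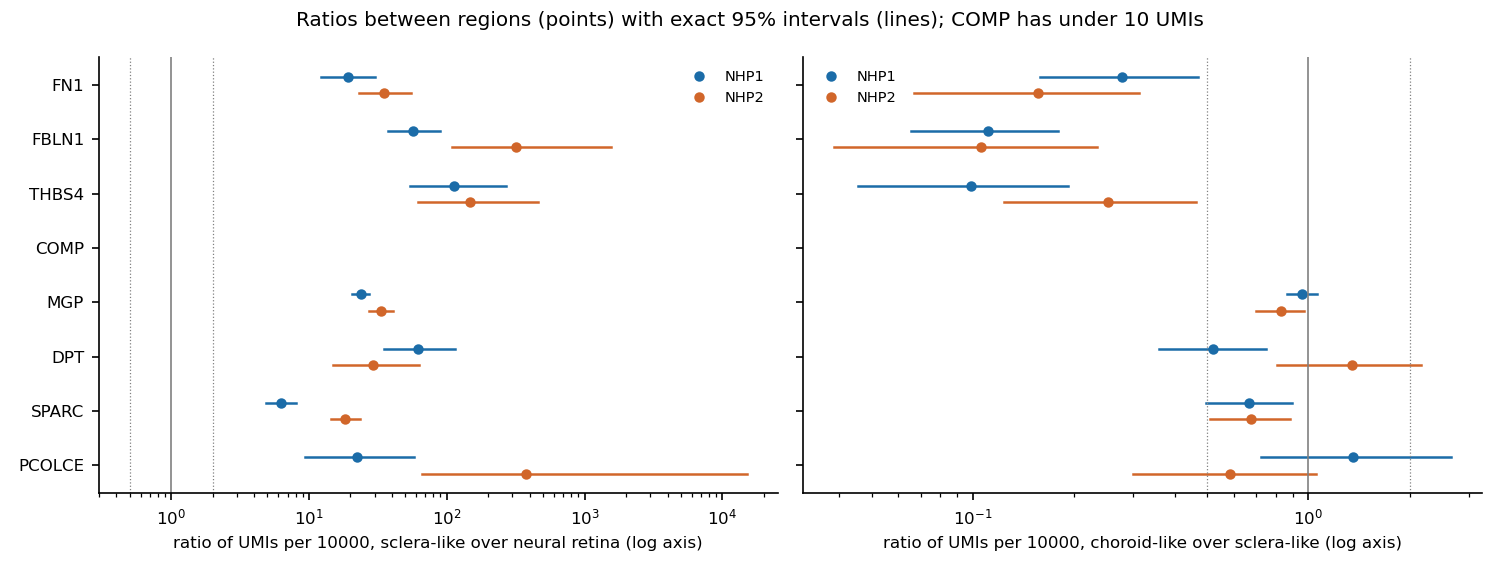
Points give the ratio of UMIs per 10000 of each gene in NHP1 and NHP2, sclera-like over neural retina (left) and choroid-like over sclera-like (right), on log axes with exact 95% intervals, a solid line at 1 and dotted lines at 2-fold. The right-hand ratios of FN1, FBLN1 and THBS4 lay between 0.0987 and 0.278 and those of MGP at 0.959 and 0.826, and COMP, with under 10 UMIs in each section, has no point.

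These ratios were set beside those of every gene with at least 50 UMIs over the regions compared. A gene enters through the region where it is abundant, so members that entered through a high sclera count had to differ, and their counts are given as a description. In NHP1, 6 members reached that minimum for sclera against neural retina, and all 6 were at least 2-fold higher in sclera, as were 6.62% of the 4817 genes compared. The remaining members, COMP (6 UMIs over the 2 regions) and PCOLCE (25), were under it. In NHP2, 7 members reached the minimum and were at least 2-fold higher, as were 11.8% of 3038 genes, and COMP (5 UMIs) was under it. The median ratio was 39.9 over the 6 members and 0.791 over all genes in NHP1, and 34.2 over the 7 members and 0.657 over all genes in NHP2. These medians, the counts past 2-fold and the ranks use ratios with 0.5 UMIs added to each sum, so they differ slightly from the ratios printed for single genes. In the order of this ratio, THBS4 was number 3, DPT number 7 and FBLN1 number 8 of 4817 in NHP1. In NHP2 FBLN1 was number 2, PCOLCE number 3 and THBS4 number 4 of 3038. The ranks are loose, since these retinal sums hold only 1 to 28 UMIs and some of them are no higher than off the tissue.

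For choroid against neural retina, FN1, MGP, DPT and SPARC reached the minimum in NHP1 and MGP and SPARC did in NHP2. All of these were at least 2-fold higher in choroid, beside 9.62% of 4956 genes in NHP1 and 10.7% of 2565 in NHP2. FBLN1, THBS4, COMP and PCOLCE had 48, 18, 3 and 40 UMIs over the 2 regions in NHP1 and were not counted. In NHP2 the uncounted members were FN1 (33 UMIs), FBLN1 (9), THBS4 (16), COMP (3), DPT (33) and PCOLCE (14).

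Between choroid and sclera, where 6 members in NHP1 and 7 in NHP2 could be compared, FN1, FBLN1 and THBS4 were at least 2-fold lower in choroid in both sections. Over all genes that share was 5.79% of 726 in NHP1 and 12.3% of 520 in NHP2. In NHP1 their ratios were among the lowest of the 726, with THBS4 at number 723, FBLN1 at 720 and FN1 at 711 when ordered from the highest. NHP2 placed FBLN1 at number 519, FN1 at 515 and THBS4 at 502 of 520. No compared member was at least 2-fold higher in choroid, a change that 9.78% and 7.12% of genes showed. COMP with 3 UMIs in NHP1 and 8 in NHP2, and PCOLCE with 47 in NHP1, were not counted.

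FN1, SPARC and PCOLCE were at least 2-fold apart between the sections. In the sclera-like spots NHP2 was above NHP1 by 2.76-fold (2.04 to 3.79) for FN1, 2.75-fold (2.20 to 3.46) for SPARC and 3.96-fold (2.32 to 7.20) for PCOLCE. These were 3 of the 7 members compared, beside 12.9% of 738 genes, and PCOLCE, with 16 UMIs in NHP1, entered through NHP2 and had to differ. Over all sclera-like spots no member was at least 2-fold lower in NHP2, where 12.6% of genes were. With the sclera-like spots of NHP1 limited to the larger tissue piece (piece 1), FN1 was at 2.07 (1.47 to 2.99), SPARC at 2.02 (1.57 to 2.63) and PCOLCE at 2.70 (1.51 to 5.25), while DPT at 0.415 (0.294 to 0.587) was lower in NHP2. Sclera markers summed to 546.3 per 10000 in the sclera-like spots of NHP1 and 1026.0 in those of NHP2, and photoreceptor markers to 75.4 and 21.0, and their part in these differences was not tested. Over all sclera-like spots MGP was at 0.948 (0.856 to 1.05), an interval that holds 1, FBLN1 at 1.28 (1.03 to 1.60), THBS4 at 1.75 (1.33 to 2.33) and DPT at 0.667 (0.477 to 0.932). FBLN1 and THBS4 depended on which spots were taken as sclera, at 0.931 and 1.09 with piece 1 alone and at 2.26 and 3.21 with a minimum of 200 UMIs per spot. The SPARC difference was also present in the choroid-like spots, at 2.79-fold (1.99 to 3.88), and the same ratio was 0.941 (0.723 to 1.22) in neural retina. Animal, age, depth, section and injected vectors differ together between NHP1 and NHP2 and cannot be told apart.

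**Figure D3:**
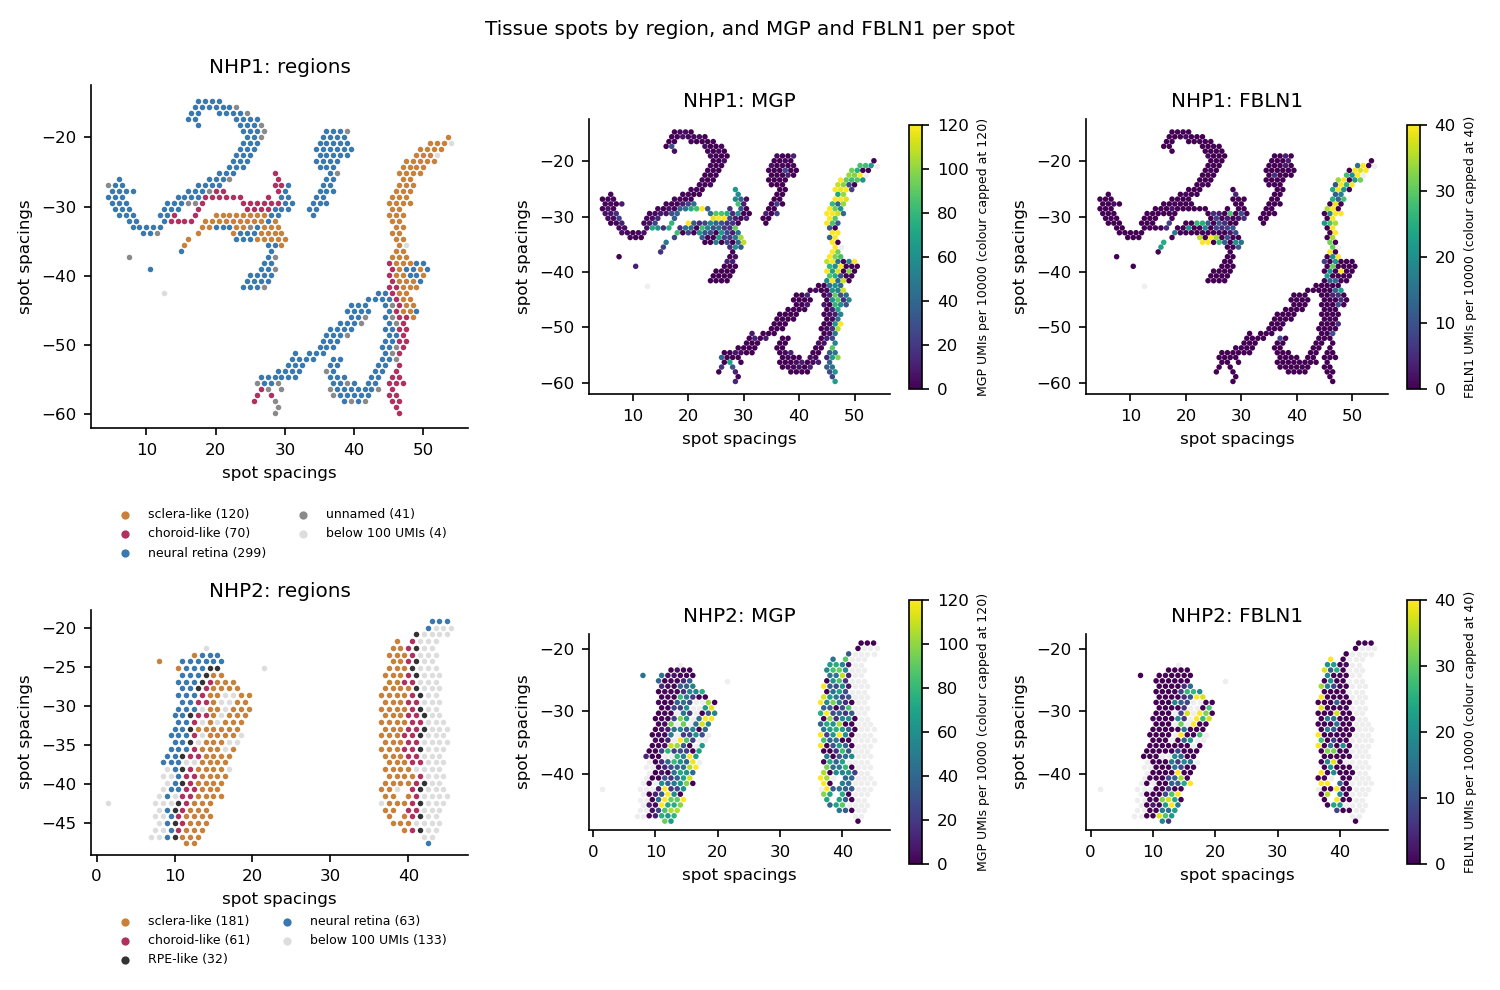
Tissue spots of NHP1 (top) and NHP2 (bottom) in spot spacings, coloured by region and by MGP and FBLN1 UMIs per 10000, with colours capped at 120 and 40. MGP fills both the sclera-like and the choroid-like bands, and FBLN1 is concentrated in the sclera-like band.

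The levels of the members were also read by depth into the outer wall. NHP2 had a region named RPE, and distance there was measured from the nearest RPE-like spot of the same piece of tissue, in spot spacings of 100 μm. THBS4 was at 6.84 (5.21 to 8.82) within 2 spacings, 13.4 (11.0 to 16.2) at 2 to 4 and 27.5 (19.6 to 37.4) at 4 to 6. FN1 went from 9.62 (7.67 to 11.9) to 15.3 (12.7 to 18.2) and 22.0 (32 UMIs), and FBLN1 from 10.3 (8.29 to 12.7) to 17.0 (14.3 to 20.1) and 22.7 (15.6 to 31.8). All 61 choroid-like spots lay in the nearest bin, beside 37 sclera-like ones, so over all spots distance and layer cannot be told apart. Over the sclera-like spots alone THBS4 was at 8.95 (6.55 to 11.9) within 2 spacings, 13.5 (11.1 to 16.4) at 2 to 4 and 28.1 (20.1 to 38.3) at 4 to 6, so the first and last intervals did not overlap. FN1 was then at 14.6 (11.5 to 18.3), 15.3 (12.7 to 18.3) and 21.8 (14.8 to 30.9), and FBLN1 at 15.8 (12.5 to 19.6), 17.2 (14.4 to 20.3) and 23.2 (16.0 to 32.6). The intervals of FN1 and of FBLN1 overlapped between these bins, so a step with distance was not detectable for them at this depth. Beyond 6 spacings lay only 4 spots with 1095 UMIs, where FN1 and THBS4 had 0 UMIs and FBLN1 had 1, too few to read a level (0 allows up to 27.4 per 10000). PCOLCE ran the other way, at 6.84 (5.21 to 8.82), 6.09 (4.51 to 8.05) and 2.75 (0.748 to 7.03), with 4 UMIs at 4 to 6 spacings and overlapping intervals. SPARC stayed between 23.3 and 29.8 and DPT between 4.72 and 6.87.

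THBS4 over all spots was at 6.17 (3.87 to 9.34), 11.8 and 16.2 (7.77 to 29.8) in piece 1 of NHP2 and at 7.32 (5.15 to 10.1), 14.3 and 35.7 (24.1 to 51.0) in piece 2. Over the sclera-like spots of each piece the first and last values were 9.72 (5.44 to 16.0) and 16.4 (7.88 to 30.2) in piece 1 and 8.62 (5.85 to 12.2) and 36.8 (24.9 to 52.6) in piece 2, so the THBS4 intervals were apart in piece 2 alone. FBLN1 over all spots was at 7.57 (4.99 to 11.0), 15.7 and 29.2 (17.3 to 46.1) in piece 1 and at 12.3 (9.40 to 15.7), 17.7 and 17.9 (10.0 to 29.5) in piece 2. FN1 was at 3.92, 13.9 and 13.0 in piece 1 and 13.6, 16.0 and 28.6 in piece 2. PCOLCE was at 2.80, 6.78 and 3.24 in piece 1 and 9.69, 5.73 and 2.38 in piece 2, so its course was not shared. The bin of 4 to 6 spacings held 54 spots and 14565 UMIs.

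**Figure D4:**
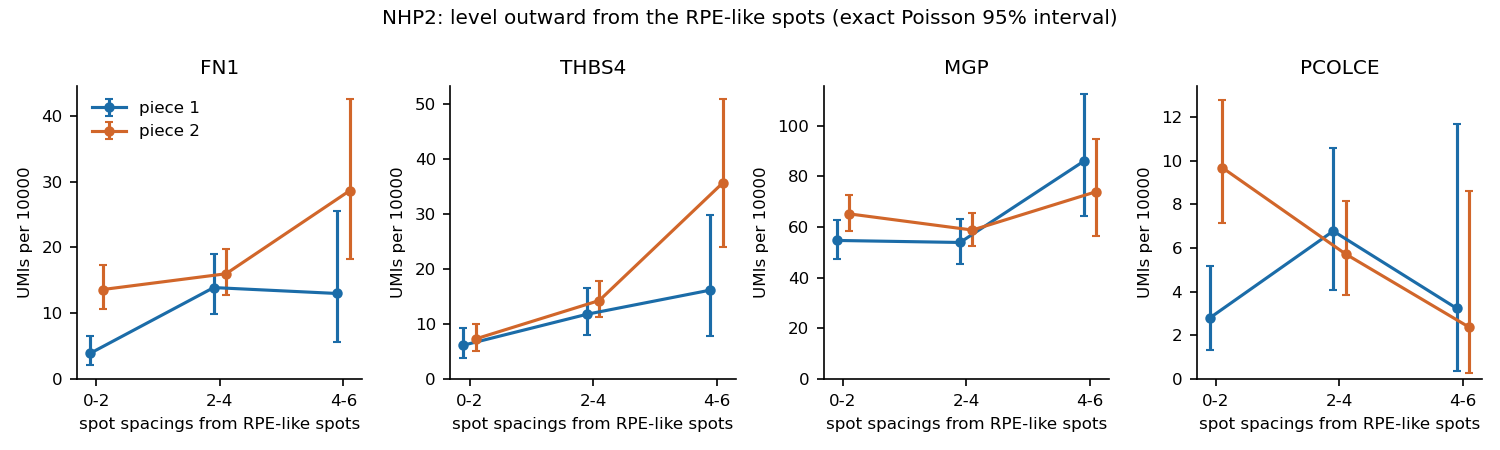
UMIs per 10000 of FN1, THBS4, MGP and PCOLCE in each tissue piece of NHP2, by distance from RPE-like spots in spot spacings, with exact Poisson 95% intervals. THBS4 was at 6.17 and 7.32 in the nearest bins of pieces 1 and 2 and at 16.2 and 35.7 at 4 to 6 spacings; the 4 spots of piece 2 beyond 6 are not drawn.

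NHP1 had no region named RPE, and distance there was taken from neural retina spots. Some spots of that class, among them spots with 101, 111, 141 and 200 UMIs, lay among sclera-like spots. Distance in NHP1 is therefore not a clean measure of depth into the wall. Up to 2 spacings away THBS4 was at 1.45, FBLN1 at 2.62, FN1 at 1.67, SPARC at 6.10 and MGP at 39.9. Over 6 spacings away they were at 15.9, 25.3, 9.39, 15.9 and 100.7. The near bin held 61 sclera-like, 47 choroid-like and 37 unnamed spots, and 46 of the 48 spots of the far bin were sclera-like, so distance and layer cannot be told apart between these bins. In NHP2 the same measure gave THBS4 2.59, 11.2, 16.6 and 7.71 over its 4 bins and FBLN1 3.37, 15.7, 17.6 and 9.33, so neither was highest in the farthest bin. That bin mixed 75 sclera-like, 27 choroid-like and 10 RPE-like spots with 61 under 100 UMIs. Distance and layer cannot be told apart there either.

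PCOLCE varied among the 3 sclera-like regions of NHP2. In the region with the most UMIs a spot PCOLCE was at 8.78 (6.95 to 10.9; 79 UMIs), against 4.26 (2.43 to 6.91; 16 UMIs) in one and 4 UMIs in the other, an interval of 0.572 to 5.37. SPARC was at 30.5 (27.0 to 34.3) in the region with the most UMIs a spot, and at 27.7 (22.6 to 33.5) and 19.9 (14.1 to 27.4) in the others. FBLN1, between 15.7 and 18.4, and THBS4, between 12.2 and 15.7, had overlapping intervals over the 3 regions. These regions were set by clustering and differ in sequencing depth, with medians of 1495.0 UMIs a spot in the first and 549.0 and 291.0 in the others.

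Pieces of 1 section gave different levels in NHP1. Its sclera-like spots lay in piece 1 (81 spots, 51992 UMIs) and piece 2 (39 spots, 41909 UMIs). MGP was at 89.2 in piece 1 and 38.9 in piece 2, a ratio of 2.29 (1.92 to 2.76), and THBS4 at 12.1 and 1.91, a ratio of 6.35 (3.03 to 15.3). DPT was at 12.5 and 1.91, FBLN1 at 18.5 and 7.16, FN1 at 7.50 and 3.34, SPARC at 14.0 and 5.73 and PCOLCE at 2.50 and 0.716. All 7 were lower in piece 2, with the PCOLCE interval (0.960 to 19.1) alone holding 1. Photoreceptor markers summed to 45.6 per 10000 in the sclera-like spots of piece 1 and 112.4 in those of piece 2, inner retina markers to 39.4 and 69.9, and sclera markers to 786.5 and 248.4. The part of this mixing in the difference was not tested.

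The piece decided some comparisons of choroid with sclera in NHP1. For MGP the choroid over sclera ratio was 0.724 (0.634 to 0.826) in piece 1 and 1.63 (1.36 to 1.97) in piece 2, so the near-equal level over both pieces is a mean of opposite directions. DPT gave 0.281 in piece 1 and 2.40 (1.07 to 6.05) in piece 2. SPARC gave 0.510 (0.348 to 0.743) and 1.14 (0.679 to 1.97), and PCOLCE 0.701 (0.293 to 1.67) and 4.05 (1.19 to 21.3). The sclera over neural retina ratio of FN1 also moved with the piece, to 87.3 and 10.5 in pieces 1 and 2 of NHP1 and to 7.93 and 40.3 in those of NHP2. Piece 1 of NHP2 held only 5 neural retina spots, against 58 in piece 2, so its 7.93 is loose. For choroid over sclera FN1 (0.331 and 0.183), FBLN1 (0.0791 and 0.213) and THBS4 (0.109 and 0.0799) kept the lower choroid level in both pieces of NHP1. In NHP2 the sclera-like spots of its pieces had MGP at 59.8 and 65.1 and FBLN1 at 17.2 in each, while FN1 was 1.49-fold (1.10 to 2.05) and SPARC 1.40-fold (1.12 to 1.75) higher in piece 2. Choroid over sclera ratios there were 0.867 and 0.812 for MGP, 1.21 and 1.28 for DPT, 0.134 and 0.207 for FN1, 0.0608 and 0.168 for FBLN1 and 0.223 and 0.310 for THBS4.

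**Figure D5:**
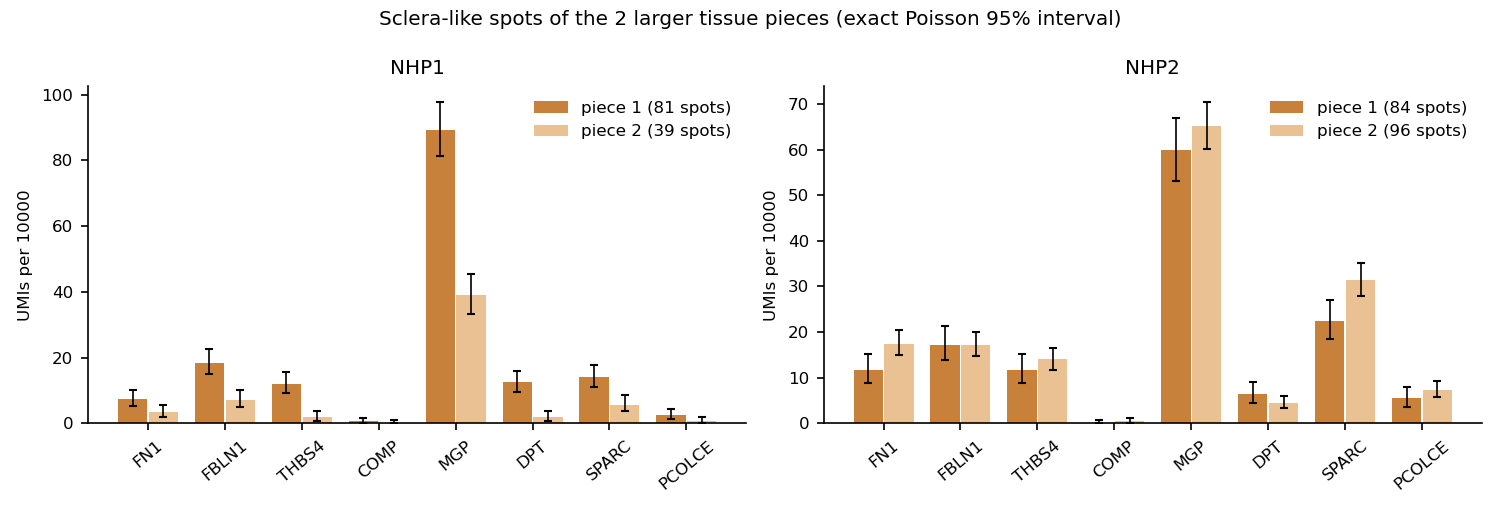
UMIs per 10000 of the members in the sclera-like spots of the larger tissue pieces of each section, with exact Poisson 95% intervals. MGP stood at 89.2 and 38.9 in pieces 1 and 2 of NHP1, and at 59.8 and 65.1 in those of NHP2.

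Spots of the sclera differed in how much of each gene they held. Over the 66 sclera-like spots of NHP1 with at least 500 UMIs, MGP had a median of 72.7 per 10000 with quartiles of 32.8 and 103.1, and it was found in each of them. Over the 101 such spots of NHP2 its median was 58.9 with quartiles of 44.2 and 80.5. FBLN1 had medians of 11.0 and 14.6, whereas FN1 had no UMI in 38 of the 66 spots of NHP1 and in 27 of the 101 of NHP2. PCOLCE was the most uneven of the members with over 50 UMIs there, since 5 of the 101 spots held 42.6% of its UMIs in NHP2, against 17.3% for MGP.

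Single spots also carried several of the genes. Among sclera-like spots with at least 500 UMIs the median number of members with a UMI was 4 in NHP1 and 5 in NHP2, and 34.8% and 57.4% of these spots had at least 5. In neural retina the medians were 1 and 2. Across the 436 tissue spots of NHP1 and the 204 of NHP2 with this depth, log-scaled FBLN1 and THBS4 levels had Pearson correlations of 0.53 and 0.47, FN1 and THBS4 of 0.47 and 0.49, and MGP and SPARC of 0.50 and 0.52. MGP and DPT gave 0.56 and 0.29. Spots share a section, a library and depth, and these values describe how the layers differ as much as any pairing within a layer.

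Of 1564 genes with at least 100 UMIs in each section, those most like FBLN1 and THBS4 over these spots were ANGPTL7, DCN and MYOC, with mean correlations of 0.66, 0.66 and 0.65 for FBLN1 and 0.56, 0.55 and 0.56 for THBS4. FN1 had the same 3, at 0.48, 0.50 and 0.47. MGP was closest to IGFBP6 (0.81), GSN (0.79) and DCN (0.75), DPT to IGFBP6 (0.45), DCN (0.44) and GSN (0.43), SPARC to IGFBP6 (0.52), MGP (0.51) and GSN (0.50), and PCOLCE to IGFBP6 (0.40), GSN (0.38) and MGP (0.37). ANGPTL7, MYOC, DCN, IGFBP6 and GSN are among the markers that named the sclera. For COMP the highest values, for SDC2, VAT1 and ENSMMUG00000060229, were 0.16 in sparse counts and are no finding.

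The low counts in neural retina were set against spots off the tissue. Within 2 spacings of tissue, off-tissue spots of NHP1 held 0.698 MGP UMIs each and neural retina spots 1.12. THBS4 had 0.0209 off tissue and 0.0268 in neural retina, and DPT 0.0615 and 0.0502, and PCOLCE 0.0255 and 0.0301, so none of these stood clear of the surround. FBLN1 had 0.0510 and 0.0936 (0.0622 to 0.135). For SPARC the values were 0.116 and 0.656. In NHP2 FBLN1 had 0.0488 off tissue and 0.0476 in neural retina, while SPARC had 0.103 and 1.38 and FN1 0.0271 and 0.397. THBS4 had 0.0488 off tissue and 0.0794 in neural retina there, from 5 retinal UMIs, and PCOLCE 0.00813 and 0.0159, from 1 retinal UMI. The retinal counts of THBS4, DPT and PCOLCE in NHP1 and of FBLN1, THBS4 and PCOLCE in NHP2 are therefore read as background. Their ratios against retina are limited by it. The retinal FBLN1 interval of NHP1 lay above the off-tissue value per spot, which has a counting error of its own. Per 10000 UMIs the order was the reverse, at 0.236 (0.157 to 0.341) in neural retina and 1.15 (0.838 to 1.55) off tissue. Whether that FBLN1 count is background cannot be read from these values. Over 3 spacings from tissue MGP was still at 7.45 (74 of 99290 UMIs) per 10000 in NHP1 and 13.6 in NHP2, above its share in neural retina, and 1 off-tissue spot of NHP1 held 99 of the 701 MGP UMIs found off tissue.

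Inside the retina of NHP1 MGP and SPARC were higher in the inner retina region than in the photoreceptor region, by 1.76-fold (1.34 to 2.35) and 1.78-fold (1.24 to 2.58). Their levels there were 3.31 and 1.88 for MGP and 2.05 and 1.15 for SPARC. Much of the MGP sum lay in few spots, since 5 of the 66 inner retina spots held 72 of its 165 UMIs. Without them its level was 2.01 and the ratio 1.07 (0.780 to 1.47). Without the 5 spots richest in SPARC its ratio was 1.49 (1.02 to 2.20). The photoreceptor region was left whole in both cases, so a lower ratio was built in. FN1 was at 0.382 (19 UMIs) and 0.275 (11 UMIs), a ratio of 1.39 (0.627 to 3.22).

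The deposited spatial autocorrelation score, Moran's I (near 1 when neighbouring spots are alike and near 0 when they are not), placed the members as follows. MGP scored 0.594 in NHP1 and 0.303 in NHP2, numbers 10 and 14 of 13804 and 12542 scored genes. FBLN1 scored 0.422 and 0.147, DPT 0.372 and 0.069, and THBS4 0.315 and 0.103, all higher in NHP1. SPARC scored 0.192 and 0.230, FN1 0.144 and 0.194 and PCOLCE 0.087 and 0.247, all higher in NHP2. COMP scored 0.106 and 0.011.

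Genes that work with the members were counted from lists, against the same shares of 6.62% in NHP1 and 11.8% in NHP2 for sclera over neural retina. Of 17 collagens and small proteoglycans bound by the members, 7 of 8 compared in NHP1 and 8 of 8 in NHP2 were at least 2-fold higher in sclera. DCN, the decorin that dermatopontin binds, was at 99.8 and 147.7 per 10000 in sclera-like spots, and COL1A2, a chain of type I collagen, at 6.50 and 36.2. This list holds sclera markers that named the region, so its count is not independent. Of 17 fibulins and elastic-fibre genes found in the reference, 4 of 5 and 6 of 6 compared were higher in sclera. The other gene compared in NHP1 was at least 2-fold lower in sclera. EFEMP1, another fibulin, was higher in choroid than in sclera, by 3.26-fold (2.12 to 5.19) in NHP1 and 6.95-fold (4.10 to 12.0) in NHP2, opposite to FBLN1.

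Of fibronectin's partners, few had enough UMIs. Of 10 receptor and assembly genes only ITGB5 and ITGB1, both integrin beta chains, could be compared, with sclera over neural retina ratios of 3.79 and 3.41 in NHP1 and 4.85 and 3.10 in NHP2. THBS1, THBS2 and THBS3 were all under the minimum, with 15, 7 and 3 sclera UMIs in NHP1 and 17, 18 and 7 in NHP2. Among 9 genes of vitamin K dependent carboxylation and mineral inhibition, SPP1, the mineral-binding osteopontin, was lower in sclera than in neural retina at 0.497 and 0.245, and GAS6, a ligand of TAM receptors, was higher at 3.79 and 4.95. In the SPARC family, SPARCL1 was 3.64-fold and 10.3-fold and FSTL1 7.80-fold and 10.8-fold higher in sclera, whereas SPOCK2 was at 0.227 and 0.235. SPARC paralleled SPARCL1 and FSTL1 in this direction. Of 19 procollagen-processing genes, 0 of 2 and 2 of 2 compared were at least 2-fold higher, the latter P4HB (2.95) and SERPINH1 (22.0), a prolyl hydroxylase subunit and the collagen chaperone. Of 21 other matrix glycoproteins, 3 of 5 and 4 of 6 compared were higher, among them IGFBP7 (5.91 and 12.8) and LAMB2 (6.51 and 9.56), while VTN was at 0.955 and 0.309. Of the tendon genes only CHAD could be compared, at 53.1 and 70.9.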

How the data were processed

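Spatial gene expression was measured in 1 section from each animal with the Visium v1 3′ polyA assay, 10 μm sections and 12 min of permeabilization. The study's methods describe the punches used for these sections as fresh frozen and reserve PFA fixation for separate immunohistochemistry punches, whereas a field of the labels calls the sectioned punches PFA-fixed. The authors deposited raw UMI counts per spot and gene from Space Ranger 2.1.0 with the Mmul_10 build, and a Moran's I score per gene. Their summed counts equalled the tissue sums here for each of the 13804 and 12542 scored genes of NHP1 and NHP2. Depth was 1484784 and 805726 tissue UMIs, with medians of 1473.5 and 370.5 a spot. The sections share 67 tissue barcodes, which name grid positions and not shared spots.

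Tissue spots with at least 100 UMIs were log-normalised and clustered without the 8 members (scanpy 1.11.5, leidenalg 0.10.2, 2000 variable genes, 20 principal components, 15 neighbours, resolution 1.0). A region took the name of the list with the most markers at least 1.5-fold enriched, with a minimum of 3 markers, unless its leading genes went against the name. The naming rule was set after the regions were seen. Counts were summed by region and intervals came from scipy 1.17.1 (Python 3.11.15), with at least 50 UMIs required for a gene. A count of 0 allows up to 3 UMIs. The ratio step was tested on simulated data. Spots mix cells, so no doublet caller was run and no cell-type makeup was estimated. The members and related lists were chosen with earlier results of these data known. The genes named from lists were the 3 with the most tissue UMIs in each, and the 3 most correlated genes were named for each member. The left eyes were not used here, and the upstream window of MGP is not reported here.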

Additional observations from a re-analysis of the deposited data

Results flagged for a closer look

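DPT and PCOLCE went in opposite directions in NHP1 and NHP2 when choroid-like spots were set against sclera-like spots, and the difference between the animals was not tested. The choroid over sclera ratio of DPT was 0.518 (0.358 to 0.747) in NHP1 and 1.35 (0.807 to 2.17) in NHP2. Within NHP1 it was 0.281 in piece 1 and 2.40 (1.07 to 6.05) in piece 2, so its direction also differed between the pieces of that section. The ratio of PCOLCE was 1.36 (0.720 to 2.66) in NHP1 and 0.585 (0.301 to 1.05) in NHP2, from 47 and 112 UMIs over the regions. Within NHP1 it was 0.701 (0.293 to 1.67) in piece 1 and 4.05 (1.19 to 21.3) in piece 2, so its direction also differed between the pieces.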

How the results depend on the processing

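No paired analysis was possible because each animal gave 1 section. FN1, FBLN1 and THBS4 were lower in choroid than in sclera under all settings that gave a value, with ratios of 0.175 to 0.396 for FN1, 0.0704 to 0.213 for FBLN1 and 0.0441 to 0.176 for THBS4 in NHP1, and of 0.0235 to 0.362, 0.0226 to 0.252 and 0.159 to 0.376 in NHP2. Every ratio of sclera over neural retina for the members other than COMP was above 1 in the settings run, though many moved by over 1.5 times. In NHP1 and NHP2 they ranged from 10.5 to 87.3 and 7.93 to 71.0 for FN1, 28.5 to 214.9 and 143.8 to 350.7 for FBLN1, 41.8 to 226.3 and 77.8 to 174.8 for THBS4, 12.5 to 42.4 and 22.4 to 36.2 for MGP, 15.2 to 124.1 and 24.4 to 99.5 for DPT, 3.30 to 9.34 and 15.1 to 23.0 for SPARC, and 6.97 to 64.9 and 202.4 to 413.4 for PCOLCE. The 7.93 of FN1 in NHP2 came from tissue piece 1, which held only 5 neural retina spots. For choroid over sclera in NHP1, MGP (0.510 to 1.63), DPT (0.238 to 2.40), PCOLCE (0.643 to 4.05) and SPARC (0.505 to 1.14) kept no direction, nor did DPT in NHP2 (0.949 to 1.35).

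Counts of members past 2-fold moved as follows, and the cause was not tested except where fewer genes or spots were compared by construction. With at least 200 UMIs per gene, sclera over neural retina gave 2 members in NHP1 (6 as reported) and 4 in NHP2 (7 as reported), choroid over neural retina gave 2 (4 as reported) and 1 (2 as reported), and choroid against sclera in NHP1 gave 0 (3 as reported). Within piece 2 of NHP1 these were 3, 2 and 0, and within piece 1 choroid over neural retina was 2 in NHP1 and 1 in NHP2. Choroid over neural retina in NHP1 was also 2 with classes from marker scores, with or without the matrix markers, and without the 5 spots richest in each member. Between NHP2 and NHP1 the sclera count was 5 (3 as reported) with a minimum of 200 UMIs per spot and when related matrix genes were left out of the clustering, with FBLN1 (2.26 and 2.14) and THBS4 (3.21 and 2.98) added, and 4 with piece 1 alone for NHP1. With that minimum and with that clustering NHP1 had no region named choroid, so its choroid ratios have no value. The tissue pieces, the marker score without matrix genes, the distances over sclera-like spots and the inner retina without its richest spots were added after seeing the data. Depth limits COMP in both sections and PCOLCE in NHP1.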

Other observations

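Macrophage markers summed to 26.6 and 27.3 UMIs per 10000 in the choroid-like spots of NHP1 and NHP2. They summed to 11.4 and 12.3 in the sclera-like spots and to 3.20 and 5.22 in neural retina. In the RPE-like spots of NHP2 the sum was 11.7, and in the unnamed region of NHP1 it was 4.39. TGM2, a transglutaminase that cross-links fibronectin, was at 2.69 (1.88 to 3.72; 36 UMIs) in the choroid-like spots of NHP1 and at 1.06 (0.511 to 1.96; 10 UMIs) in the sclera-like spots. In NHP2 TGM2 was at 5.17 (3.01 to 8.27; 17 UMIs) and 1.02 (0.573 to 1.69; 15 UMIs). It had fewer than 50 UMIs over both regions in each section, the minimum for a gene to be counted here, so these are given as values only. It was chosen after its values were seen.

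BGLAP, the vitamin K dependent osteocalcin, was at 0.885 (105 UMIs) per 10000 in neural retina and 0.106 (1 UMI) in the sclera-like spots of NHP1, and at 0.805 (45 UMIs) and 0.273 (4 UMIs) in NHP2. Its sclera over neural retina ratios were 0.120 (0.00302 to 0.685) and 0.339 (0.0886 to 0.930). In NHP2 BGLAP had fewer than 50 UMIs over both regions, so its ratio there is given as a value only.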
